A study of Homo sapiens with 30 samples.

Results

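CTGF, CYR61, ANKRD1, F2RL1, AXL, NT5E, AJUBA, AMOTL1, AMOTL2 and LATS2 are widely used as readouts of the coactivators YAP and TAZ, and these 10 genes were followed across 10 groups of RNA-seq libraries from the human breast cancer line MDA-MB-231. They were taken by gene symbol, and all 10 were found among the 26475 genes of each of 2 count tables and passed the low-count filter in both. The study asks how tumour cell lineages that live together differ from the same lineages alone. The first table holds lineages 22, 35 and 45, each recovered from a 6-member co-culture after 15 days or grown in isolation for about 24 h. The second holds lineages 03, 10, 13 and a culture labelled Pop, all grown in isolation for about 24 h. Each of the 10 groups has 3 libraries. All groups are described as wild type MDA-MB-231 cells, the lineages as distinct ones, and grew in RPMI-1640 with 10% dialyzed serum and 2 mM glutamine.

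Several things separate the groups besides company. The co-culture went through a bottleneck passage every 3 days, and its lineages were separated by FACS, a step the isolated cells did not go through. RNA came from sorted cells with one column kit in the co-culture groups, and from monolayers scraped into TRIzol in the isolation groups. Co-culture, time in culture, sorting and extraction therefore cannot be told apart. What Pop contains is not given in the labels, and neither is the origin of the replicates. The p-values thus measure the spread between libraries, which may be technical. Values were compared within a table only.

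YAP (gene YAP1) and TAZ (gene WWTR1) carry no DNA-binding domain of their own and reach promoters and enhancers through TEAD transcription factors. The Hippo kinase cascade, ending in LATS1 and LATS2, phosphorylates them and holds them in the cytoplasm, while cell spreading, matrix stiffness and actin tension favour their entry into the nucleus. MDA-MB-231 cells are mutated in NF2, an upstream activator of the cascade, and are often used as cells with active YAP and TAZ. CTGF and CYR61 encode secreted matricellular proteins of the CCN family, and ANKRD1 encodes an ankyrin-repeat protein found in the nucleus and the sarcomere. F2RL1 encodes the protease-activated receptor PAR2, AXL a receptor tyrosine kinase for GAS6, and NT5E the surface enzyme CD73, which makes adenosine from AMP. AJUBA, AMOTL1, AMOTL2 and LATS2 are targets that also act back on the pathway: AJUBA restrains LATS kinases, the angiomotin-like proteins bind YAP, and LATS2 phosphorylates it.

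RefSeq promoter windows (GRCh38.p14, 250 bases before to 50 after a start) were at hand for 9 of the 10 genes, and were searched for the core TEAD motif GGAATG on both strands (CATTCC on the other). At least 1 match lay in 14.03% of all 35116 windows, at least 2 in 1.373% and at least 3 in 0.1281%. Of the 9 genes, 7 had a match in at least 1 window, and of their 12 windows 7 held a match. The CTGF window held 3, at 169, 104 and 95 bases before the start, and the ANKRD1 window held 2, at 220 and 128 bases before it. ANKRD1 also had a match to TGANTCA, a loose form of the AP-1 motif with any centre base, at 195 bases before the start. The match reads TGATTCA, and the loose form is present in 7.709% of windows. Single matches were found for F2RL1 (194 bases before the start, other strand), AMOTL2 (69, other strand), AXL (212, other strand), AJUBA (59) and LATS2 (9 bases after the start). AMOTL2, AXL and AJUBA each have 2 windows at different starts. Their matches lay in window 2 only, and window 1 held none. The AMOTL1 and NT5E windows held no match. The 250 bases before the start are printed for CTGF, ANKRD1 and F2RL1, members with large differences between groups and at least 1 match, and for AMOTL1 as a window with none. Capitals mark GGAATG or CATTCC, and each run reads 5′ to 3′ on the strand of its gene.
CTGF, chr6:131951373-131951622, minus strand: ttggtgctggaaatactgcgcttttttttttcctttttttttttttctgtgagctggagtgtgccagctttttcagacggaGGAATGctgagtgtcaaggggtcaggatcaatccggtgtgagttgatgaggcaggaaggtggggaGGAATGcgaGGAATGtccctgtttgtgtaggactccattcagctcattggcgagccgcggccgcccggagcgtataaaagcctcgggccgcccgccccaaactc
ANKRD1, chr10:90921088-90921337, minus strand: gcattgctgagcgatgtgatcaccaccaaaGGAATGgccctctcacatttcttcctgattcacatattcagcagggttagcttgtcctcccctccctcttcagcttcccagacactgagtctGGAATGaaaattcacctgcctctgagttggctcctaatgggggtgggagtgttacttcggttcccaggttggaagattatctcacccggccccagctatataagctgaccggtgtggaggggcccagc
F2RL1, chr5:76818780-76819029, plus strand: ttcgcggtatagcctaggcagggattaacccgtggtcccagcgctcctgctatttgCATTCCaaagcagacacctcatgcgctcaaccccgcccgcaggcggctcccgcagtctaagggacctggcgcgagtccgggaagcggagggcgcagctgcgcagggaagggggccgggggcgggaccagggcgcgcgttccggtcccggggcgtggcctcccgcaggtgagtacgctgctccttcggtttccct
AMOTL1, chr11:94768106-94768355, plus strand: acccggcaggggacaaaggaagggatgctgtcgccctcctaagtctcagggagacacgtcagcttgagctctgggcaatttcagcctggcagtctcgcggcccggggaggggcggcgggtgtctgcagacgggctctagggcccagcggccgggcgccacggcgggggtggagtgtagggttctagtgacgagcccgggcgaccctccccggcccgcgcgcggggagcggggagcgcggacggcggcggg
A match describes the letters only. No binding data were used here, and a single match, as in F2RL1, is of a kind that 14.03% of windows have.

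**Figure D1:**
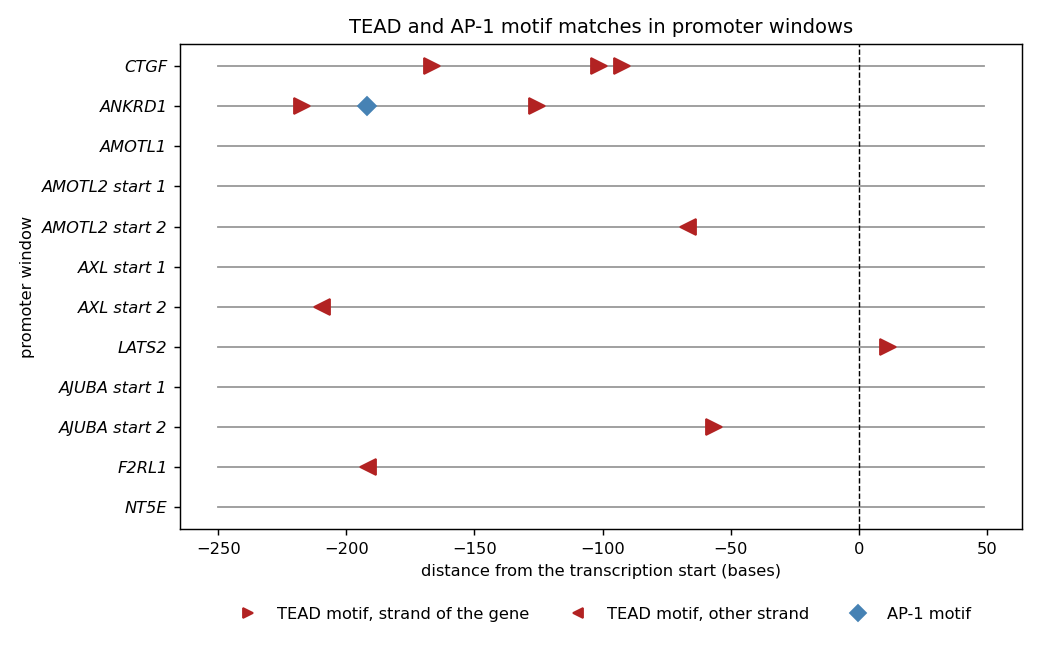
Positions of TEAD (GGAATG, triangles) and loose AP-1 (TGANTCA, any centre base, diamonds) motif matches in 12 promoter windows of 9 genes. Distance is in bases from the transcription start, and each line is a window. The CTGF line carries 3 triangles and the ANKRD1 line 2, while AMOTL1, NT5E and start 1 of AMOTL2, AXL and AJUBA carry none.

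Library totals ran between 28.1 M and 38.8 M counts, and levels are given as CPM (counts scaled to a common library total) on TMM-scaled libraries. CPM is not per length, so levels are compared between groups and not between genes. VIM and CD44, high in this line, stood at or above 757 CPM in every library. The hormone receptor genes ESR1 and PGR, which it lacks, stood at or below 0.303 CPM. They belong to a list of 6 genes low or absent in this line, with CDH1, EPCAM, ERBB3 and GATA3. The list summed to 18.1 to 40.6 CPM over the libraries. In each group, 2 or 3 of its genes had a mean below 1 CPM. In lineage 35, CDH1 (log2 2.70 ± 0.42 SE) and ERBB3 (1.80 ± 0.14) were higher from co-culture and EPCAM lower (-1.02 ± 0.15). CDH1 fell in lineages 22 (-1.60 ± 0.31) and 45 (-1.52 ± 0.40). The genes high in this line, VIM, CD44, MSN and CAV1, differed too. In lineage 35, VIM (0.88 ± 0.09) and MSN (0.75 ± 0.09) were higher from co-culture, and CD44 (-0.48 ± 0.07) and CAV1 lower. CD44 was also lower in lineages 22 (-0.32 ± 0.07) and 45 (-0.42 ± 0.07). VIM was higher in lineage 22 (0.51 ± 0.09) and CAV1 lower in lineage 45 (-0.82 ± 0.10). One set of libraries goes against its label in part. The lineage 35 libraries from co-culture had a mean log2 CPM correlation of 0.924 with the libraries labelled lineage 35 in isolation, below their 0.964 with isolated lineage 45 and 0.950 with isolated lineage 22. On the axis of largest variance (41.9%) the libraries labelled lineage 35 in isolation stood alone. Below, lineage 35 means the libraries carrying that label. In the second table, Pop replicate 1 stood apart from the other Pop libraries (chi-square per gene of 51.5 and 70.6, against 6.18 between the other two).

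CTGF, CYR61 and ANKRD1, the most used of these readouts, were higher from co-culture than in isolation in all 3 lineages. The remaining genes differed in 1 or 2 lineages, or in none, and each difference beyond 2-fold involved the libraries labelled lineage 35. A call is an adjusted p below 0.05 from edgeR's quasi-likelihood test with Benjamini-Hochberg adjustment over all 14570 genes tested. Of all these genes, 27%, 32.7% and 18.6% were called higher from co-culture in lineages 22, 35 and 45. How many were called higher in all 3 lineages was not counted, so the shared rise has no background share. Errors of log2 differences are SE, obtained as the size of the difference divided by the square root of its quasi-likelihood F statistic.

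ANKRD1 (GRCh38 chr10:90912096-90921276, minus strand) had 1062, 1233 and 1115 CPM in the lineage 35 libraries from co-culture and 109, 123 and 117 CPM in isolation. In lineage 45 it had 1161, 1156 and 1056 CPM from co-culture and 605, 597 and 631 CPM in isolation. In lineage 22 it had 1062, 1070 and 1157 CPM from co-culture and 981, 902 and 838 CPM in isolation. The groups did not overlap in any lineage, and the co-culture libraries of all 3 lineages shared 1 narrow range while the isolation libraries did not. The rise was 9.77-fold in lineage 35 (log2 3.29 ± 0.09, edgeR adjusted p = 5.75e-17). It was 1.84-fold in lineage 45 (log2 0.88 ± 0.08, edgeR adjusted p = 7.15e-08) and 1.21-fold in lineage 22 (log2 0.27 ± 0.08, adjusted p = 0.00615). In bulk RNA, fewer cells of a type and less RNA per cell cannot be told apart.

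CTGF (chr6:131948176-131951373, minus strand) had 656, 561 and 585 CPM in lineage 35 from co-culture and 252, 256 and 246 CPM in isolation. Lineage 22 had 550, 520 and 504 CPM from co-culture and 283, 298 and 327 CPM in isolation. Lineage 45 had 611, 634 and 621 CPM from co-culture and 444, 473 and 498 CPM in isolation. Again every co-culture library lay above every isolation library of its lineage. CTGF rose 2.39-fold in lineage 35 (log2 1.26 ± 0.08, edgeR adjusted p = 1.98e-11). It rose 1.73-fold in lineage 22 (log2 0.79 ± 0.08, edgeR adjusted p = 7.22e-08) and 1.32-fold in lineage 45 (log2 0.40 ± 0.08, adjusted p = 0.000328).

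CYR61 (chr1:85580761-85583962, plus strand) had 1673, 1484 and 1638 CPM in lineage 35 from co-culture and 654, 556 and 520 CPM in isolation. Lineage 45 had 1499, 1405 and 1592 CPM from co-culture and 1061, 1064 and 1084 CPM in isolation. Lineage 22 had 1073, 921 and 1065 CPM from co-culture and 723, 746 and 859 CPM in isolation. The groups were separate within each lineage, but the lineage 22 libraries from co-culture lay beside those of isolated lineage 45. CYR61 rose 2.77-fold in lineage 35 (log2 1.47 ± 0.09, edgeR adjusted p = 4.13e-11). It rose 1.4-fold in lineage 45 (log2 0.49 ± 0.09, edgeR adjusted p = 0.000348) and 1.31-fold in lineage 22 (log2 0.39 ± 0.09, adjusted p = 0.00128).

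**Figure D2:**
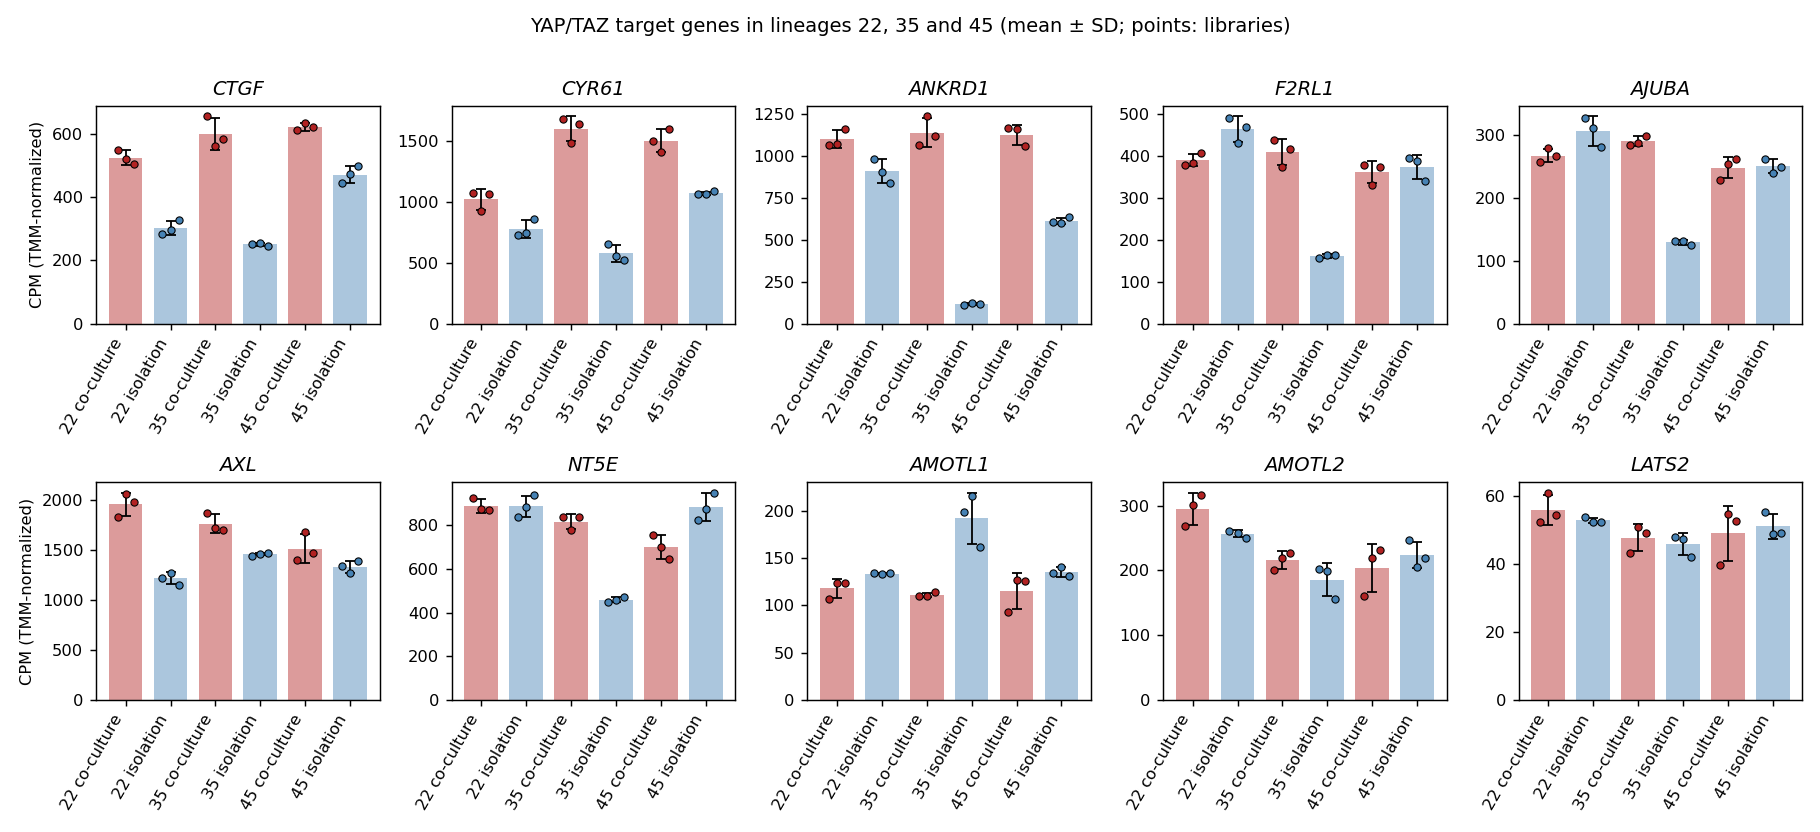
TMM-normalized CPM of the 10 YAP/TAZ target genes in lineages 22, 35 and 45, from co-culture (red) and in isolation (blue); bars are means, whiskers SD and points the 3 libraries. For ANKRD1 the co-culture bars of lineages 22, 35 and 45 stand level, at 1096, 1137 and 1125 CPM, while the isolation bars stand at 907, 116 and 611 CPM.

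F2RL1 and AJUBA rose in lineage 35 and were lower from co-culture in lineage 22. F2RL1 (chr5:76818933-76835315, plus strand) had 438, 375 and 416 CPM in lineage 35 from co-culture and 156, 164 and 163 CPM in isolation, a rise of 2.55-fold (log2 1.35 ± 0.08, edgeR adjusted p = 1.89e-11). In lineage 22 it had 380, 384 and 406 CPM from co-culture and 492, 431 and 470 CPM in isolation. There it fell by 0.25 ± 0.08 on the log2 scale (edgeR adjusted p = 0.0118), a call lost without isolation replicate 1 (-0.21, adjusted p = 0.0643). The groups did not overlap in either lineage. In lineage 45 the log2 difference was -0.05 ± 0.08.

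AJUBA, whose LIM-domain product binds LATS kinases, had 285, 287 and 299 CPM in lineage 35 from co-culture and 131, 132 and 125 CPM in isolation. This was a rise of 2.25-fold (log2 1.17 ± 0.07, edgeR adjusted p = 3.52e-11). In lineage 22 it had 258, 279 and 266 CPM from co-culture and 327, 312 and 281 CPM in isolation, and fell by 0.20 ± 0.07 on the log2 scale (edgeR adjusted p = 0.0273). Of 13 alternatives, 8 lost that call. They were RLE scaling (-0.17, adjusted p = 0.0609), no low-count filter (adjusted p = 0.0798), the compared groups alone (adjusted p = 0.0853) and the fit without the groups labelled 35 (adjusted p = 0.0992). The other 4 left out isolation replicate 1 (-0.15) or 2 (-0.18) or co-culture replicate 1 (-0.17) or 3 (-0.19). In lineage 45 the AJUBA difference was -0.01 ± 0.07.

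The other surface proteins each had a pattern of their own. AXL had 1830, 2065 and 1985 CPM in lineage 22 from co-culture and 1226, 1276 and 1154 CPM in isolation. The groups did not overlap, and the rise was 1.61-fold (log2 0.69 ± 0.08, edgeR adjusted p = 6.47e-07). AXL rose by 0.27 ± 0.08 in lineage 35 (edgeR adjusted p = 0.00445). In lineage 45 its difference of 0.19 ± 0.08 did not pass (edgeR adjusted p = 0.0621), although it did under RLE scaling (0.22, adjusted p = 0.0265). NT5E had 839, 776 and 836 CPM in lineage 35 from co-culture and 448, 458 and 472 CPM in isolation, a rise of 1.78-fold (log2 0.83 ± 0.08, edgeR adjusted p = 9.59e-09). In lineage 45 NT5E had 754, 701 and 644 CPM from co-culture and 823, 876 and 950 CPM in isolation, and fell by 0.34 ± 0.08 on the log2 scale (edgeR adjusted p = 0.00154). Neither pair of NT5E groups overlapped. In lineage 22 they did, with a log2 difference of 0.00 ± 0.08.

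Among the targets that feed back on the pathway, AMOTL1 was the one member that fell in lineage 35. It had 110, 109 and 114 CPM from co-culture and 199, 216 and 162 CPM in isolation, without overlap, and fell by 0.79 ± 0.11 on the log2 scale (edgeR adjusted p = 2.22e-06). In lineages 22 and 45 the AMOTL1 differences were -0.18 ± 0.11 and -0.23 ± 0.11, and neither passed. AMOTL2 differed by 0.20 ± 0.12, 0.22 ± 0.12 and -0.14 ± 0.12 in lineages 22, 35 and 45, and LATS2 by 0.08 ± 0.10, 0.06 ± 0.10 and -0.06 ± 0.10. None of these 6 differences was called, and the LATS2 group means stayed between 45.7 and 55.8 CPM over all 6 groups. AMOTL2 in lineage 22 was called when only its own groups were fitted (0.23, edgeR adjusted p = 0.0378).

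In counts, lineage 35 had 7 members higher and 1 lower from co-culture, where 32.7% of all genes tested were called higher and 32.9% lower. Lineage 22 had 4 higher and 2 lower, with 27% and 30% of all genes called. Lineage 45 had 3 higher and 1 lower, with 18.6% and 23.2% of all genes called. The median log2 difference over the 10 members was 0.14 in lineage 22, 1.0 in lineage 35 and -0.03 in lineage 45, beside medians over all genes of -0.04, 0.01 and -0.03. In lineage 45 the members' median was thus that of all genes, and the calls there rest on 4 genes.

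**Figure D3:**
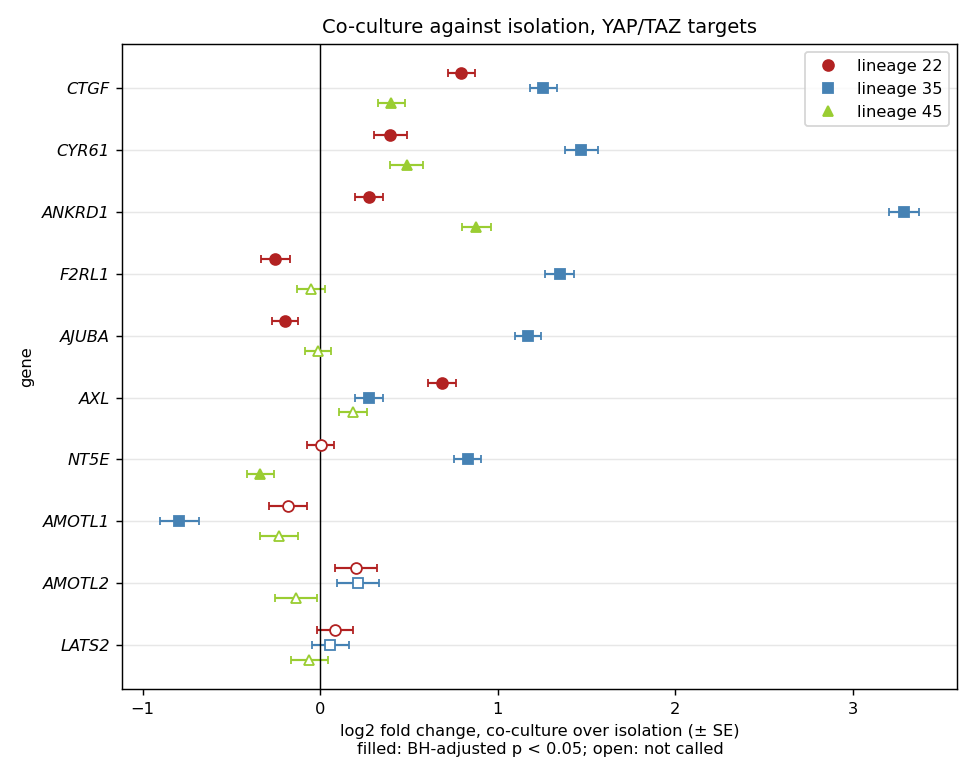
Log2 fold change of each member, co-culture over isolation, in lineages 22, 35 and 45 (whiskers SE, filled symbols called). CTGF, CYR61 and ANKRD1 lie right of 0 in all 3 lineages, and the lineage 35 symbols reach 3.29 for ANKRD1 and -0.79 for AMOTL1.

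The size of the response was then compared between lineages, as a difference between log2 differences. Lineage 22 responded differently from lineage 35 at 8 of 10 members, where 49.6% of all genes were called. ANKRD1 (-3.01 ± 0.11) and CYR61 (-1.08 ± 0.13) rose in both lineages, less so in lineage 22, and AXL rose more there (0.41 ± 0.11). F2RL1 (-1.60 ± 0.11) and AJUBA (-1.37 ± 0.10) differed in direction, being lower from co-culture in lineage 22 and higher in lineage 35. Lineage 35 against 45 gave 7 calls, with 42.3% of all genes called, among them NT5E, whose values rose in lineage 35 and fell in lineage 45 (difference 1.17 ± 0.11). Lineage 22 against 45 gave 4 calls, with 17.3% of all genes called. The responses of AXL (0.50 ± 0.11), CTGF (0.39 ± 0.11) and NT5E (0.34 ± 0.11) were higher in lineage 22 and that of ANKRD1 lower (-0.61 ± 0.11). The NT5E call was lost without lineage 22 isolation replicate 1 or 2, lineage 22 co-culture replicate 1, lineage 45 isolation replicate 2 or 3, or lineage 45 co-culture replicate 2 or 3 (values between 0.29 and 0.35). A joint F test over the 3 responses called 8 members, all but AMOTL2 and LATS2, and 55.2% of all genes. The 3 pairs share lineages, so their lists are not independent.

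Fewer members differed between lineages from co-culture than in isolation in the 2 pairs that involve lineage 35, and as many in the pair 22 and 45. In isolation, lineage 22 against 35 gave 9 calls among the members (63.6% of all genes called), lineage 22 against 45 gave 5 (38.4%) and lineage 35 against 45 gave 7 (51.8%). From co-culture the same pairs gave 2 calls (31.1% of all genes), 5 calls (25.2%) and 1 call (12.7%). The share of all genes called was thus also smaller from co-culture in each pair. ANKRD1 was 7.79-fold higher in lineage 22 than in lineage 35 in isolation (log2 2.96 ± 0.09, edgeR adjusted p = 1.85e-16), and from co-culture the difference was -0.05 ± 0.08 (adjusted p = 0.652). F2RL1 differed by 1.53 ± 0.08 in isolation and -0.07 ± 0.08 from co-culture for the same pair, and AJUBA by 1.25 ± 0.07 and -0.12 ± 0.07.

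CYR61 still differed from co-culture, being lower in lineage 22 than in lineage 35 (-0.65 ± 0.09, edgeR adjusted p = 2.49e-05) and lineage 45 (-0.56 ± 0.09, adjusted p = 0.000173). AMOTL2 was higher in lineage 22 than in both, by 0.45 ± 0.12 and 0.54 ± 0.12. Against lineage 45, lineage 22 also had more AXL (0.37 ± 0.08) and NT5E (0.35 ± 0.08) and less CTGF (-0.25 ± 0.08, edgeR adjusted p = 0.0212). That CTGF call was lost when only those 2 groups were fitted (adjusted p = 0.128), and without lineage 22 replicate 2 (-0.24) or 3 (-0.22) or lineage 45 replicate 2 (-0.23). The 1 call between lineages 35 and 45 was AJUBA (0.23 ± 0.07, edgeR adjusted p = 0.0471), which was lost when any 1 lineage 35 library was left out, and without lineage 45 replicate 1 (0.17) or 2 (0.24).

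Ordered by level over the 6 groups, ANKRD1 had lineages 35 (1137 CPM), 45 (1125) and 22 (1096) from co-culture on top, neighbours that did not pass the test. Isolated lineages 22 (907 CPM), 45 (611) and 35 (116) followed, each step called. CTGF also had the co-culture groups on top, at 622 CPM in lineage 45, 600 in lineage 35 and 524 in lineage 22. The step from there to isolated lineage 45 (472 CPM) was not called, and the next steps, to isolated lineages 22 (302) and 35 (251), were. For AJUBA, F2RL1 and NT5E no neighbours among the other 5 groups passed the test, and isolated lineage 35 lay below them at 129, 161 and 459 CPM. AMOTL1 had isolated lineage 35 on top at 192 CPM and the other 5 groups between 111 and 135 CPM. No neighbours passed in the orders of AXL, AMOTL2 and LATS2.

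YAP1, encoding YAP, was called in 1 lineage and WWTR1, encoding TAZ, in another. YAP1 had 182, 196 and 231 CPM in lineage 35 from co-culture and 209, 236 and 192 CPM in isolation, a log2 difference of -0.07 ± 0.12. It fell in lineage 22 (-0.36 ± 0.12, edgeR adjusted p = 0.0119), a call lost without isolation replicate 3 (adjusted p = 0.0692) or co-culture replicate 3 (adjusted p = 0.0751). Its difference of -0.12 ± 0.12 in lineage 45 did not pass. WWTR1 had 152, 131 and 161 CPM in lineage 35 from co-culture and 107, 133 and 101 CPM in isolation, and rose by 0.38 ± 0.11 (edgeR adjusted p = 0.00360). Its differences of 0.00 ± 0.11 in lineage 22 and -0.23 ± 0.11 in lineage 45 did not pass.

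Of the 4 TEAD factors, TEAD4 and TEAD2 rose in all 3 lineages. TEAD4 rose by 0.71 ± 0.11, 0.47 ± 0.11 and 0.40 ± 0.10 on the log2 scale in lineages 22, 35 and 45, and TEAD2 by 0.40 ± 0.10, 0.31 ± 0.10 and 0.39 ± 0.10. The TEAD2 call in lineage 35 was lost without isolation replicate 2 (edgeR adjusted p = 0.0691) or co-culture replicate 1 (adjusted p = 0.0563). TEAD3 had 37.4, 38.2 and 34.5 CPM in lineage 35 from co-culture and 72.0, 71.1 and 78.7 CPM in isolation, without overlap (-1.01 ± 0.08, edgeR adjusted p = 1.67e-09). In lineages 22 and 45 the TEAD3 differences were 0.05 ± 0.08 and 0.10 ± 0.08, and the response of lineage 35 was lower than that of lineage 45 (-1.11 ± 0.12). TEAD1 passed in no lineage (-0.04 ± 0.15, -0.14 ± 0.15 and -0.29 ± 0.15). VGLL4, which competes with YAP for TEAD, fell in all 3 lineages (-0.46 ± 0.08 in lineage 22, -0.45 ± 0.08 in lineage 35 and -0.36 ± 0.08 in lineage 45). VGLL2, another TEAD cofactor, rose in all 3 lineages (1.55 ± 0.37, 4.78 ± 0.41 and 1.88 ± 0.32) at low levels, with 1.19, 1.46 and 0.950 CPM in lineage 35 from co-culture and 0.0323, 0.0277 and 0.0622 CPM in isolation. Over the 9 coactivators and partners tested, 3 were higher and 3 lower in lineage 22, 4 higher and 2 lower in lineage 35, and 3 higher and 2 lower in lineage 45. Beside them, 27% and 30% of all genes were called higher and lower in lineage 22. The shares were 32.7% and 32.9% in lineage 35, and 18.6% and 23.2% in lineage 45.

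Among 15 Hippo kinases and scaffolds tested, 2 were higher and 6 lower in lineage 22, 3 higher and 7 lower in lineage 35, and 2 higher and 3 lower in lineage 45. Shares of all genes called higher and lower were 27% and 30% in lineage 22 and 32.7% and 32.9% in lineage 35. For lineage 45 they were 18.6% and 23.2%. The list medians were -0.08, -0.16 and -0.02, beside -0.04, 0.01 and -0.03 over all genes. MAP4K4, a kinase that can phosphorylate LATS in parallel to the MST kinases, had 157, 171 and 191 CPM in lineage 35 from co-culture and 430, 530 and 476 CPM in isolation. It fell there (-1.47 ± 0.14), in lineage 45 (-1.05 ± 0.14) and in lineage 22 (-0.70 ± 0.14). TAOK2, of a kinase family that activates the MST kinases, fell in all 3 lineages (-0.82 ± 0.10 in 35, -0.63 ± 0.10 in 45 and -0.62 ± 0.10 in 22), as did WWC3, a KIBRA-family scaffold (-1.42 ± 0.10, -0.41 ± 0.10 and -0.91 ± 0.10). SAV1, the MST scaffold, rose in lineages 35 (0.99 ± 0.08) and 22 (0.22 ± 0.08). FRMD6 rose in lineage 35 (0.98 ± 0.10) and fell in lineage 22 (-0.35 ± 0.10).

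**Figure D4:**
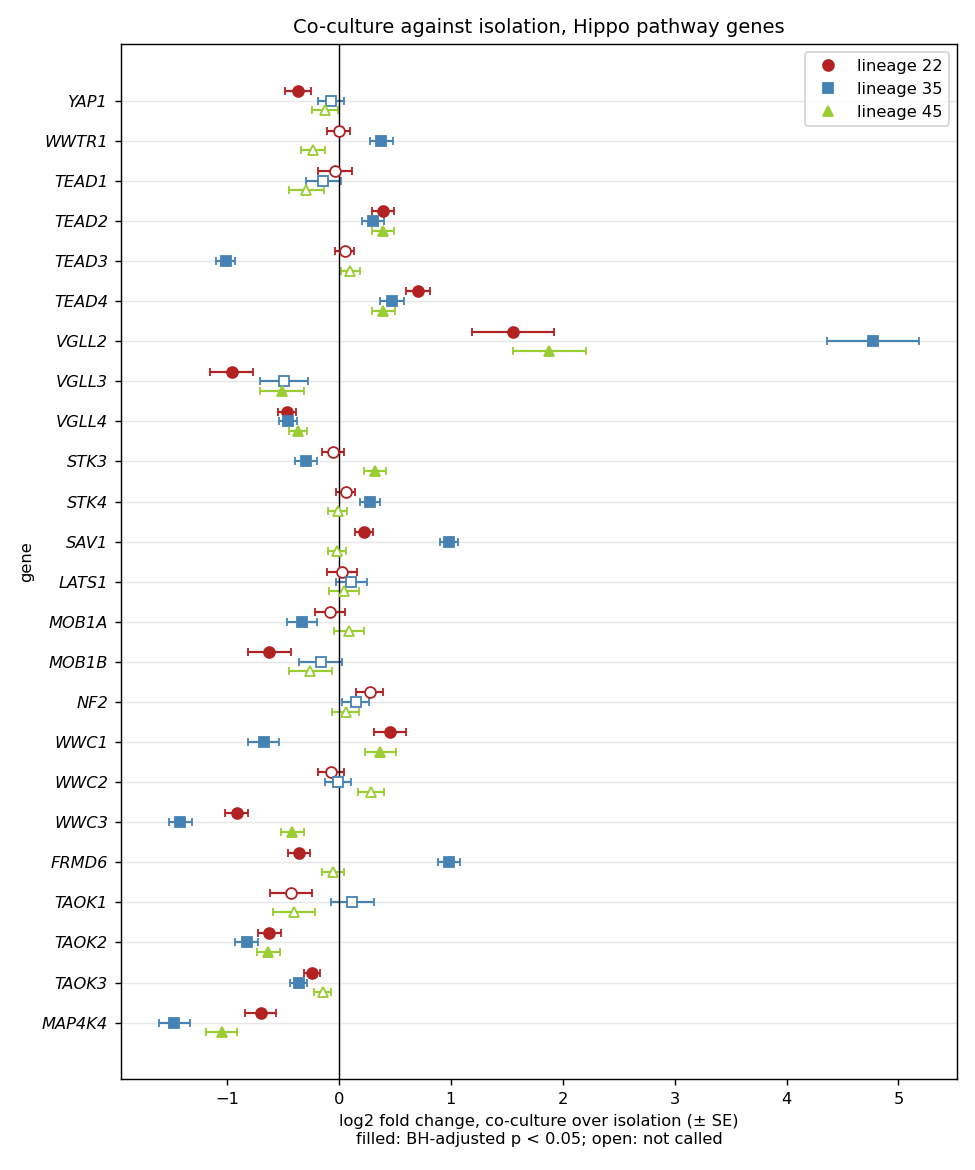
Log2 fold change, co-culture over isolation, of YAP/TAZ coactivators, their partners and Hippo pathway genes in lineages 22, 35 and 45 (whiskers SE, filled symbols called). TEAD4 and TEAD2 lie right of 0 and VGLL4, WWC3, TAOK2 and MAP4K4 left of 0 in all 3 lineages, while TEAD3 in lineage 35 stands at -1.01.

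Of 15 other reported YAP and TAZ targets tested, 2 were higher and 6 lower in lineage 22, 4 higher and 4 lower in lineage 35, and 4 higher and 6 lower in lineage 45, with medians of -0.11, -0.01 and -0.21 beside -0.04, 0.01 and -0.03 over all genes. In lineage 35 both shares lay below the 32.7% and 32.9% of all genes called. Lineage 22 had 27% of all genes called higher and 30% lower, and lineage 45 had 18.6% and 23.2%. CRIM1, a transmembrane regulator of BMP ligands, rose in all 3 lineages (0.71 ± 0.13, 1.0 ± 0.13 and 0.47 ± 0.13 in lineages 22, 35 and 45). NUAK2, a kinase of actomyosin tension, rose in lineages 35 (1.87 ± 0.17) and 45 (1.14 ± 0.16). CCDC80, a secreted matrix protein, fell in all 3 (-0.49 ± 0.13 in lineage 22, -1.90 ± 0.13 in 35 and -0.60 ± 0.12 in 45). F3, encoding tissue factor, fell in lineage 22 (-0.50 ± 0.10), MYOF, encoding myoferlin, fell in lineage 45 (-0.61 ± 0.11), and FJX1 rose in lineage 22 by 0.62 ± 0.08.

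Actin and contractility genes driven by SRF and its MRTF cofactors, which share inputs with YAP, were counted next. Of 17 tested, 7 were higher and 3 lower in lineage 22, and 3 higher and 9 lower in lineage 35. In lineage 45, 9 were higher and 4 lower. Beside them, 27% and 30% of all genes were called higher and lower in lineage 22. The shares were 32.7% and 32.9% in lineage 35, and 18.6% and 23.2% in lineage 45. The list medians were 0.11, -0.26 and 0.21 in lineages 22, 35 and 45, beside -0.04, 0.01 and -0.03 over all genes. TAGLN, encoding the actin-binding transgelin, rose in lineage 22 by 1.47 ± 0.19, and CNN3, a calponin, by 0.66 ± 0.08. FHL1, a LIM-only protein, had 20.6, 21.7 and 21.6 CPM in lineage 35 from co-culture and 0.742, 0.748 and 0.405 CPM in isolation, a rise of 5.06 ± 0.16. THBS1, encoding thrombospondin 1, had 1463, 1442 and 1508 CPM in lineage 35 from co-culture and 8257, 7461 and 6710 CPM in isolation, and fell there (-2.35 ± 0.10) and in lineage 45 (-1.03 ± 0.10). TPM2, a tropomyosin, fell in all 3 lineages (-2.16 ± 0.18 in 22, -2.76 ± 0.19 in 35 and -1.86 ± 0.18 in 45).

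Immediate early genes, which answer to handling as well as to serum and stress, were called higher more often than lower in lineages 35 and 45 and as often in lineage 22. Of 14 tested, 10 were higher and 1 lower in lineage 35, 9 higher and 1 lower in lineage 45, and 3 higher and 3 lower in lineage 22. Shares of all genes called higher and lower were 32.7% and 32.9% in lineage 35 and 18.6% and 23.2% in lineage 45. For lineage 22 they were 27% and 30%. The list medians were 1.13, 0.31 and -0.16 in lineages 35, 45 and 22, beside 0.01, -0.03 and -0.04 over all genes. Their summed level was 693 to 785 CPM in lineage 35 from co-culture and 444 to 543 CPM in isolation. In lineage 45 it was 661 to 831 CPM from co-culture and 487 to 531 CPM in isolation, and in lineage 22 it was 681 to 728 CPM from co-culture and 573 to 638 CPM in isolation. DUSP1, a phosphatase of MAP kinases, rose in all 3 lineages (3.82 ± 0.24 in 35, 1.99 ± 0.21 in 45 and 1.75 ± 0.21 in 22). JUNB, an AP-1 subunit, rose in lineage 35 by 1.35 ± 0.11, IER2 by 0.83 ± 0.08, and BTG2, an antiproliferative gene, rose in lineage 45 by 1.51 ± 0.22. ZFP36, which destabilizes mRNA, rose in lineages 22 (0.90 ± 0.13) and 45 (0.74 ± 0.13), and EGR2, a zinc-finger factor, fell in lineage 22 (-3.40 ± 0.41). The part of these changes, or of sorting, in the rise of CTGF, CYR61 and ANKRD1 was not tested.

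Marker lists of other cell types also differed between the groups. The summed level of 6 endothelial markers was 126 to 137 CPM in lineage 35 from co-culture and 7.20 to 8.26 CPM in isolation. Most of it was ESAM, a junction protein, with 131, 126 and 120 CPM from co-culture and 5.97, 7.20 and 6.78 CPM in isolation. PECAM1 had 3.25, 2.49 and 3.60 CPM in lineage 35 from co-culture and 0.129, 0.111 and 0.218 CPM in isolation, a rise of 4.33 ± 0.32, and the VEGF receptor gene KDR rose there by 1.87 ± 0.20. In lineage 22 PECAM1 (-1.32 ± 0.19) and KDR (-1.0 ± 0.18) fell. The defining marker CDH5 stood at or below 0.116 CPM in every library. The endothelial sum was 142 to 152 CPM in lineage 22 from co-culture and 99.4 to 104 CPM in isolation, and 129 to 143 CPM in lineage 45 from co-culture and 122 to 128 CPM in isolation. The sum of 6 leukocyte markers was 173 to 191 CPM in lineage 35 from co-culture and 45.2 to 70.8 CPM in isolation. It went the other way, without overlap, in lineage 22, with 249 to 297 CPM from co-culture and 334 to 361 CPM in isolation, and in lineage 45, with 242 to 259 CPM from co-culture and 299 to 341 CPM in isolation. In lineage 35 CD68, a lysosomal protein, rose by 1.55 ± 0.12, LAPTM5 by 1.89 ± 0.21 and PTPRC, encoding CD45, by 4.12 ± 0.58, the last with 0.745, 0.802 and 1.27 CPM from co-culture and 0.0646, 0.0554 and 0.0311 CPM in isolation. CD3E, a T cell marker, stood at or below 0.0286 CPM in every library. The 6 fibroblast markers summed to 9.48 to 10.5 CPM in lineage 35 from co-culture and 10.6 to 15.2 CPM in isolation. Of the markers tested in lineage 35, 3 of 5 endothelial and 4 of 4 leukocyte genes were higher and 2 of 3 fibroblast genes lower. In lineage 22, 1 endothelial gene was higher and 3 lower, 2 leukocyte genes were lower and 1 fibroblast gene was lower. In lineage 45, 1 endothelial and 1 leukocyte gene were lower, and 1 fibroblast gene was higher and 1 lower. Shares of all genes called higher and lower were 32.7% and 32.9% in lineage 35, and 27% and 30% in lineage 22. For lineage 45 they were 18.6% and 23.2%. The part of these markers in the differences of the members was not tested.

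Partners of the surface members were counted as well. Of 12 tested, 3 were higher and 2 lower in lineage 22, 5 higher and 3 lower in lineage 35, and 3 higher and 2 lower in lineage 45. Shares of all genes called higher and lower were 27% and 30% in lineage 22 and 32.7% and 32.9% in lineage 35. They were 18.6% and 23.2% in lineage 45. MERTK, a receptor of the AXL family, rose in lineage 35 by 2.24 ± 0.09, and PROS1, a ligand of that family, by 1.85 ± 0.13. TYRO3, the remaining receptor of the family, fell in lineage 35 (-1.29 ± 0.08) and rose in lineage 22 by 0.91 ± 0.08. F2RL2, encoding PAR3, fell in lineage 22 (-2.09 ± 0.21) and in lineage 45 (-0.76 ± 0.20). SLC29A1, a transporter of adenosine, rose in lineage 22 by 0.45 ± 0.08. ADORA1, an adenosine receptor, had 2.35, 3.01 and 2.09 CPM in lineage 45 from co-culture and 0.364, 0.432 and 0.200 CPM in isolation, a rise of 2.90 ± 0.31, and F2R, encoding PAR1, rose there by 0.36 ± 0.09. Of the 4 other CCN genes, 2 were tested. NOV (CCN3) had 6.74, 7.79 and 9.30 CPM in lineage 35 from co-culture and 1.29, 1.58 and 1.99 CPM in isolation, a rise of 2.29 ± 0.17, and it fell in lineages 22 (-1.56 ± 0.15) and 45 (-0.67 ± 0.14). WISP2 (CCN5) stayed at or below 1.35 CPM on average in all 6 groups, with 0.115, 0.0586 and 0.269 CPM in lineage 22 from co-culture and 1.65, 1.12 and 1.28 CPM in isolation.

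In the second table, F2RL1, AJUBA, ANKRD1 and CYR61 were lower in lineages 03, 10 and 13 than in Pop, and CTGF was lower in lineage 03. F2RL1 had 133, 141 and 119 CPM in lineage 03, 99.0, 95.5 and 98.4 CPM in lineage 10 and 95.3, 99.2 and 106 CPM in lineage 13, against 364, 358 and 316 CPM in Pop. No lineage overlapped Pop. F2RL1 was lower 2.65-fold in lineage 03 (log2 -1.4 ± 0.08, edgeR adjusted p = 1.84e-08), 3.54-fold in lineage 10 (-1.83 ± 0.08, 3.41e-09) and 3.45-fold in lineage 13 (-1.79 ± 0.08, 2.88e-09). AJUBA had 171, 151 and 162 CPM in lineage 03, 179, 171 and 163 CPM in lineage 10 and 173, 167 and 155 CPM in lineage 13, against 234, 237 and 241 CPM in Pop. The log2 differences were -0.56 ± 0.07, -0.47 ± 0.07 and -0.52 ± 0.07 in lineages 03, 10 and 13, all called, and again no lineage overlapped Pop.

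CTGF set lineage 03 apart. It had 152, 132 and 134 CPM in lineage 03, 349, 329 and 351 CPM in lineage 10 and 381, 392 and 351 CPM in lineage 13, against 425, 379 and 351 CPM in Pop. The fall in lineage 03 was 2.77-fold (log2 -1.47 ± 0.09, edgeR adjusted p = 2.56e-08), while lineages 10 (-0.17 ± 0.09) and 13 (-0.04 ± 0.09) were not called. CTGF was also lower in lineage 03 than in lineage 10 (-1.30 ± 0.09) and lineage 13 (-1.43 ± 0.09).

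ANKRD1 and CYR61 values depended on Pop replicate 1. ANKRD1 had 225, 159 and 160 CPM in lineage 03, 290, 321 and 319 CPM in lineage 10 and 201, 265 and 299 CPM in lineage 13, against 745, 496 and 465 CPM in Pop. All 3 lineages lay below every Pop library, with log2 differences of -1.65 ± 0.19, -0.87 ± 0.19 and -1.16 ± 0.19 in lineages 03, 10 and 13. The falls were called without Pop replicate 1 too (-1.41, -0.63 and -0.93). CYR61 had 1004, 863 and 882 CPM in lineage 03, 959, 980 and 878 CPM in lineage 10 and 751, 730 and 846 CPM in lineage 13, against 1611, 1046 and 1083 CPM in Pop. These groups did not overlap either. The log2 differences of CYR61 were -0.44 ± 0.14, -0.41 ± 0.14 and -0.69 ± 0.14, and without Pop replicate 1 the differences were -0.22, -0.18 and -0.48, that of lineage 10 no longer called (edgeR adjusted p = 0.0964). Without lineage 03 replicate 2 or 3 the CYR61 call of lineage 03 was lost (edgeR adjusted p = 0.0696 and 0.0577), and without any 1 lineage 10 library that of lineage 10.

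AMOTL1 ran the other way. It had 242, 238 and 224 CPM in lineage 03 and 225, 238 and 246 CPM in lineage 10, against 123, 160 and 176 CPM in Pop, without overlap, and was higher by 0.62 ± 0.12 (edgeR adjusted p = 0.000717) and 0.63 ± 0.12 (adjusted p = 0.000794). In lineage 13 its difference was 0.06 ± 0.12. LATS2 had 35.2, 35.2 and 31.7 CPM in lineage 13 against 42.4, 51.4 and 50.8 CPM in Pop, without overlap, and fell by 0.50 ± 0.09 (edgeR adjusted p = 0.000495). In lineage 10 LATS2 was higher by 0.23 ± 0.09 (edgeR adjusted p = 0.0497). That call was lost under RLE scaling (adjusted p = 0.0520), with no low-count filter (adjusted p = 0.0519), with at least 5 CPM in 3 libraries (adjusted p = 0.0682), with the compared groups alone (adjusted p = 0.0976) and with the replicate number as a block (adjusted p = 0.0754). It was also lost without Pop replicate 1 (0.15, adjusted p = 0.148), or lineage 10 replicate 1 (0.23) or 3 (0.19). AXL fell in lineage 03 (-0.39 ± 0.07) and rose in lineage 13 (0.20 ± 0.07, edgeR adjusted p = 0.0315), the rise being lost without any 1 Pop library and without lineage 13 replicate 2 (0.19) or 3 (0.19). NT5E fell in lineage 13 (-0.35 ± 0.10). AMOTL2 fell in lineage 13 too (-0.24 ± 0.08, edgeR adjusted p = 0.0320), a call lost with those 2 groups fitted alone (adjusted p = 0.0767) and without Pop replicate 2 (-0.20) or lineage 13 replicate 2 (-0.25) or 3 (-0.19).

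Lineage 03 had 1 member higher and 6 lower than Pop, where 23.2% of 14638 genes were called higher and 25.5% lower. Lineage 10 had 2 higher and 4 lower (18.8% and 23.5% of all genes), and lineage 13 had 1 higher and 7 lower (21% and 24.2%). The member medians were -0.42, -0.13 and -0.43, beside -0.03, -0.02 and -0.01 over all genes. The 3 comparisons share the Pop libraries. Among the lineages themselves, 4 members differed between 03 and 10 (51.4% of all genes called), 8 between 03 and 13 (53.2%) and 3 between 10 and 13 (34.6%). LATS2 was higher in lineage 03 than in lineage 13 by 0.61 ± 0.09 and in lineage 10 than in lineage 13 by 0.74 ± 0.09. AMOTL1 was higher in lineages 03 and 10 than in lineage 13 by 0.56 ± 0.12 and 0.57 ± 0.12. The endothelial marker sum was 13.7 to 17.9, 33.0 to 36.2 and 7.24 to 9.45 CPM in lineages 03, 10 and 13 and 84.2 to 98.9 CPM in Pop. The leukocyte sum was 210 to 232, 79.4 to 91.3 and 81.7 to 108 CPM in those lineages and 205 to 234 CPM in Pop, and the fibroblast sum lay between 7.65 and 18.9 CPM over all 4 groups. Of the 3 markers tested in each list, 3 endothelial genes were lower than Pop in lineage 03, 2 in lineage 10 and 3 in lineage 13. Of the leukocyte genes 2 were higher in lineage 03, 2 lower in lineage 10 and 3 lower in lineage 13, and of the fibroblast genes 1 was higher and 2 lower in lineage 03, 1 lower in lineage 10 and 3 lower in lineage 13. The part of these markers in the differences from Pop was not tested.

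**Figure D5:**
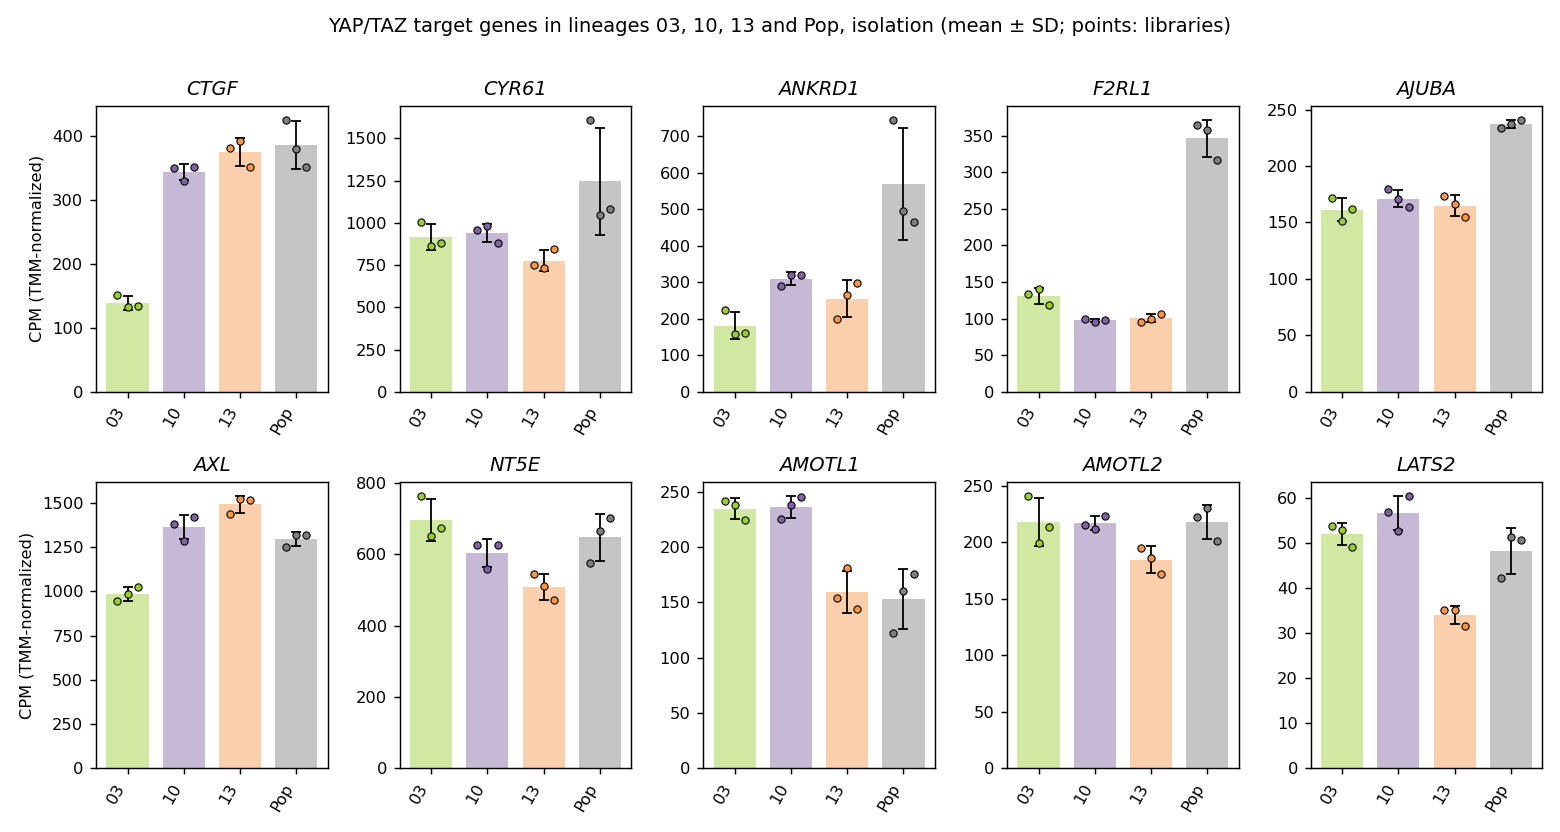
TMM-normalized CPM of the 10 genes in lineages 03, 10, 13 and Pop, all in isolation; bars are means, whiskers SD and points the 3 libraries. F2RL1 and AJUBA are tallest in Pop (346 and 237 CPM), CTGF is shortest in lineage 03 (139 CPM), and Pop replicate 1 is the high point for CYR61 and ANKRD1.

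YAP1 was higher in lineages 03 (0.39 ± 0.11, edgeR adjusted p = 0.0101) and 10 (0.30 ± 0.11, adjusted p = 0.0418) and lower in lineage 13 (-0.47 ± 0.11, adjusted p = 0.00357) than in Pop. TEAD4 was lower in lineage 03 than in Pop (-0.90 ± 0.11), with differences of -0.17 ± 0.11 and -0.16 ± 0.11 in lineages 10 and 13 that did not pass. TEAD3 was higher in lineages 03 (0.51 ± 0.14) and 13 (0.86 ± 0.14). WWTR1 was lower in lineage 10 (-0.39 ± 0.12), and TEAD2 was lower in lineage 10 (-0.36 ± 0.09) and higher in lineage 13 (0.38 ± 0.08). TEAD1 passed against Pop in no lineage (-0.19 ± 0.15, 0.40 ± 0.15 and 0.17 ± 0.15 in lineages 03, 10 and 13). For YAP1, WWTR1 and the TEAD genes, alternative fits were run only for co-culture against isolation within a lineage. Whether their calls against Pop hold without Pop replicate 1, or under other processing, was not tested. Of 15 other YAP and TAZ targets tested, 2 were higher and 5 lower in lineage 03, 4 higher and 2 lower in lineage 10, and 0 higher and 8 lower in lineage 13. The medians of these targets were -0.01, 0.14 and -0.28 in lineages 03, 10 and 13. Of all genes, 23.2% and 25.5% were called higher and lower for lineage 03, with 18.8% and 23.5% for 10 and 21% and 24.2% for 13. Of 15 Hippo kinases and scaffolds, 6 were higher and 1 lower in lineage 03, 7 higher and 4 lower in lineage 10, and 4 higher and 4 lower in lineage 13, with medians of 0.21, 0.21 and 0.12.

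Across libraries, the members tracked each other unevenly, which is given here as a description, since libraries of a group share their lineage and condition. Over the 18 libraries of the first table, log2 CPM of AJUBA and F2RL1 had Pearson r = 0.975, CTGF and CYR61 0.946, and ANKRD1 and AJUBA 0.938. AMOTL1 had a negative r with all 9 other members, down to -0.886 with ANKRD1. Over the 12 libraries of the second table, CTGF and AXL had r = 0.901 and AJUBA and F2RL1 0.895, and AMOTL1 had a positive r with 3 of 9 members. Among 10459 genes, those most like CTGF by the lower of its r values in the 2 tables were CTSC (0.972 and 0.983 over 18 and 12 libraries), CBX6 (0.950 and 0.941) and FANCG (0.931 and 0.928). For ANKRD1 they were M6PR (0.971 and 0.935), SNAPC1 (0.918 and 0.913) and SPRYD4 (0.951 and 0.909), and for CYR61 CNPY2 (0.904 and 0.934), CHIC2 (0.875 and 0.943) and CD320 (0.948 and 0.875). The members had been left out of this ranking beforehand.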

How the data were processed

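Polyadenylated RNA was sequenced with a stranded mRNA kit from 500 ng of RNA as 2 x 75 nt pairs, per the labels' protocols. The authors deposited 2 tables of length-scaled estimated counts per gene, and STAR 2.6.1d, Salmon 1.4.0 and GRCh38 (hg38) are named in the submitters' processing notes. These estimated counts need not be whole, and were rounded here to whole numbers. Library totals were 28.1 M to 38.8 M, and the biological coefficient of variation was 10.4% in both tables.

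Each table was fitted once over all its groups with edgeR 4.0.16 under R 4.3.3 (TMM scaling, filterByExpr, robust quasi-likelihood F test), and p-values were adjusted by Benjamini-Hochberg over the 14570 or 14638 genes tested. CPM values are TMM-scaled, and log2 CPM for correlations used a prior count of 2. The p-values rest on 3 libraries a group, and replicates differed beyond sampling noise (chi-square per gene 5.01 to 70.6), so none were merged. The fit was tested on simulated data. Alternatives were RLE scaling, DESeq2 1.42.0, no low-count filter, at least 5 CPM in 3 libraries, the replicate number as a block, the compared groups alone and each library left out. A fit without both groups labelled 35 was added after seeing the data. Replicate numbers are shared between groups but nothing says that they pair libraries.

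The members and gene lists were chosen with earlier results of these data known. Named are the 10 members, YAP1, WWTR1 and TEAD1 to TEAD4, and up to 3 genes with the smallest p per list and co-culture comparison. For CTGF, CYR61 and ANKRD1, the 3 non-member genes with the highest lower r of both tables were added. These came from genes with a mean of at least 5 CPM. A gene that the rule picked in 1 lineage may also be given in the others, some genes it picked from the lists are only counted, and CDH5 and CD3E were chosen after their values were seen. Motifs were searched in RefSeq promoter windows (GRCh38.p14), and gene positions are from GENCODE on GRCh38. Date-like entries replaced 28 gene symbols of the second table, none a member.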

Additional observations from a re-analysis of the deposited data

Results flagged for a closer look

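The log2 fold changes from isolation to co-culture differed between lineages, by the test of the difference itself, for these members. Co-culture cannot be told apart here from time in culture, sorting and extraction. Values are differences between 2 log2 fold changes, the first lineage minus the second. Between lineages 22 and 35 they were -0.46 for CTGF, -1.08 for CYR61, -3.01 for ANKRD1, 0.61 for AMOTL1, 0.41 for AXL, -1.37 for AJUBA, -1.60 for F2RL1 and -0.83 for NT5E. Between lineages 35 and 45 they were 0.86 for CTGF, 0.99 for CYR61, 2.41 for ANKRD1, -0.56 for AMOTL1, 1.18 for AJUBA, 1.4 for F2RL1 and 1.17 for NT5E. Between lineages 22 and 45 they were 0.39 for CTGF, -0.61 for ANKRD1, 0.50 for AXL and 0.34 for NT5E. The first 15 of these 19 include the libraries labelled lineage 35 in isolation, beside those of the other lineage compared.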

How the results depend on the processing

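The count of members called stayed within 1.5 times of its value in 17 of 19 comparisons under every alternative run. Between lineages 35 and 45 from co-culture the 1 call became 0 under RLE scaling, with no low-count filter, with at least 5 CPM in 3 libraries, with the replicate block and with those groups alone, 3 with DESeq2, and 0 to 1 with a library left out. Between lineages 10 and 13 the 3 calls became 5 with those groups alone. The replicate block also gave 5 calls in place of 6 for lineage 10 against Pop, and changed no other count. Same-numbered libraries correlated above 0.1 for all 3 numbers in 1 pair of groups only, lineages 22 and 45 from co-culture (0.360, 0.253 and 0.166), so the numbers were not taken to pair libraries. Without the groups labelled 35, lineage 22 had 5 members called between co-culture and isolation in place of 6, and lineage 45 kept a count of 4. No called fold change changed sign under any alternative; sign changes of values called in neither fit were not counted. The causes were not tested. How far depth limits the smaller differences was not tested.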
